A study of Mus musculus with 15 samples.

Results

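The transcripts of 10 cytokine genes of dendritic cells (DCs) and monocytes were followed: the interleukin-12 family chains Il12a, Il12b, Il23a, Ebi3 and Il27, then Il6, Il10 and Tnf, and the pair Il15 and Il15ra. They were picked by symbol, matched to the Ensembl identifiers of the deposited tables, and make up 10 of the 38924 genes there. Of these, 7 passed the filter on low counts that 14456 genes passed, and Il12a, Il23a and Il10 did not. RNA was measured in 15 murine libraries from 5 sorted subtypes, with 3 libraries each, and the study chose these cells to set murine against human mononuclear phagocytes. Levels are given as counts scaled to library size with TMM factors (CPM), in the order of replicates 1, 2 and 3, and values across genes as TPM, the length-scaled transcript share.

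All animals were naïve female C57BL/6 mice, 6 to 8 weeks old by the labels and 6 to 10 weeks by the study's methods, with no treatment in any group. Cells of 5 mice were pooled for a library. The spleen gave CD8+ DCs (DC1) and CD4+ DCs (DC2), both gated on CD11c and MHC class II, and Ly6C+ CD11b+ monocytes. Lung-draining lymph nodes (LNs) gave DC1 sorted as CD103+ and DC2 sorted as CD11b+, both gated as migratory cells by high MHC class II. Collagenase D was used on both organs, with CD11c beads ahead of the DC sorts and CD11b beads ahead of the monocyte sort. Organs came from different cohorts, so organ, cohort and gate cannot be told apart in a difference between LN and spleen. In sorted bulk RNA, fewer cells that make a transcript and less of it per cell cannot be told apart either.

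Interleukin-12 family cytokines act as pairs of chains. The p40 chain, encoded by Il12b, joins p35 (Il12a) to form IL-12, which drives interferon-γ production and type 1 T cell responses, or p19 (Il23a) to form IL-23, which sustains type 17 responses, and p40 is also secreted without either partner. EBI3 joins p28 (Il27) to form IL-27. IL-15 is held at the surface of the producing cell by its receptor α chain (Il15ra) and presented to neighbouring NK cells and memory CD8+ T cells, and DCs are known sources of all of these.

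Libraries held 4531243 to 10233914 counts on genes, LN CD11b+ replicate 3 the fewest. The migratory DC list (Ccr7, Fscn1, Ccl22, Cacnb3) summed to 6283 to 14526 CPM in LN DCs and to at most 361 CPM in any splenic DC library, and the monocyte list to 5323 to 5876 CPM in monocytes and at most 676 CPM in DCs. The DC list (Itgax, Flt3, Zbtb46, Dpp4, H2-Ab1) was lower in LN, at 3431 to 5422 CPM in CD103+ and 6845 to 11165 CPM in CD11b+ DCs. In spleen it summed to 19630.5 to 23984 CPM in CD8+ DCs, 13888 to 23656 CPM in CD4+ DCs and 1530 to 1926 CPM in monocytes. The DC1 list summed to 3308 to 5158 CPM in splenic CD8+ and 93.7 to 135 CPM in splenic CD4+ DCs, and to 715 to 1041 CPM in LN CD103+ and 284 to 436 CPM in LN CD11b+ DCs, but also to 478 to 593 CPM in monocytes. The DC2 list summed to 1416 to 2446 CPM in splenic CD4+ and 784 to 868 CPM in LN CD11b+ DCs. In monocytes it summed to 2277 to 2595 CPM, a range that overlapped that of splenic CD4+ DCs. The macrophage list was lower in monocytes (399 to 485 CPM) than in splenic CD4+ (1024 to 1321 CPM) and LN CD11b+ DCs (615 to 893 CPM). It was higher in monocytes than in splenic CD8+ (165 to 271 CPM) and LN CD103+ DCs (165 to 216 CPM). All 5 T cell markers were detected in LN DCs, where they summed to 55.6 to 114 CPM, against at most 5.50 CPM in the splenic subtypes, with Cd3e and Trac at 0 in monocytes. The 5 B cell markers reached 218 CPM in 1 LN CD103+ library and 15.3 to 87.9 CPM in the other 14. The neutrophil list reached 109 CPM in monocytes and 0.809 CPM in DCs. The part of these lists in the differences below was not tested.

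Il12b lies on chromosome 11 (44400063 to 44414033, mm10), Ebi3 on chromosome 17 (55952623 to 55957021) and Il15ra on chromosome 2 (11705287 to 11733986), all on the plus strand. These were the members with a promoter in the RefSeq table that were highest in LN CD103+ DCs, so their promoters are printed, as the 250 bases before the annotated start in GRCm38.p6, 5′ to 3′. RefSeq promoters were matched for 6 of the 10 members. Il15ra has 2 windows there, and the one of the upstream start is printed. Capitals mark matches, on either strand, to letters chosen with the sequences in view: GGGNNNNNCC for NF-kB, GAAANNGAAA for IRF factors, TGANTCA for AP-1, GAGGAA for PU.1 and TATAA for a TATA box.
Il12b, chr11:44399813-44400062: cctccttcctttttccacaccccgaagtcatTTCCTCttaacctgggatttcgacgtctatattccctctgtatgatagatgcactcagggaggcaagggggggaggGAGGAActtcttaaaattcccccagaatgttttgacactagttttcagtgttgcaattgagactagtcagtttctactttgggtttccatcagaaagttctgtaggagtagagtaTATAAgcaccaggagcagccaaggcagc
Ebi3, chr17:55952373-55952622: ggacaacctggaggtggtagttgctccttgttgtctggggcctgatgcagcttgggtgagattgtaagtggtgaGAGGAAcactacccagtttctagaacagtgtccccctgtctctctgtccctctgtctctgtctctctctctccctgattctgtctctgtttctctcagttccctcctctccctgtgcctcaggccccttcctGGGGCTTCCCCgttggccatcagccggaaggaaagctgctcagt
Il15ra, chr2:11705043-11705292: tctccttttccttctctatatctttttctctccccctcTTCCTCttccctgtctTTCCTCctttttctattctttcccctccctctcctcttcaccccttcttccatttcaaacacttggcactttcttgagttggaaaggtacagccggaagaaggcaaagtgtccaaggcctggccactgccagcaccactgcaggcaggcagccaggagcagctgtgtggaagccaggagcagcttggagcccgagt
The Il12b promoter held PU.1 letters 219 to 214 and 143 to 138 bases before the start and TATAA 28 to 24 bases before it. Ebi3 held overlapping NF-kB matches between 44 and 34 bases before the start and PU.1 letters 176 to 171 bases before it. Il15ra held PU.1 letters at 212 to 207 and 196 to 191 bases. None of the 3 printed windows held the IRF or AP-1 letters. The other Il15ra window, which is not printed, held NF-kB letters 102 to 93 and AP-1 letters 30 to 24 bases before its start. Of all 32851 promoter windows of this length, 45.8% held the NF-kB letters, 23.3% those of PU.1, 22.8% TATAA, 6.75% those of AP-1 and 2.98% those of IRF factors, so most of these matches are common.

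Il12b separated the subtypes over the widest range of the 7 tested members. Its level in LN was 496, 391 and 527 CPM in CD103+ DCs and 83.4, 40.8 and 63.0 CPM in CD11b+ DCs. In the spleen it was 20.1, 33.6 and 83.4 CPM in CD8+ DCs and 6.32, 12.8 and 13.3 CPM in CD4+ DCs. No count was seen in any monocyte library. LN CD103+ DCs lay above every other library, and splenic CD8+ DCs overlapped LN CD11b+ DCs but not splenic CD4+ DCs. Il12b was higher in the DC1 than in the DC2 of both organs, with a log2 difference of 2.91 ± 0.42 (SE) in LN (adjusted p = 1.6e-04) and 2.09 ± 0.43 in spleen (adjusted p = 0.0019). It was higher in LN than in spleen within DC1, by 3.36 ± 0.43 (adjusted p = 7.1e-06), and within DC2, by 2.54 ± 0.44 (adjusted p = 2.6e-04). Neighbours in the order of levels differed except for LN CD11b+ and splenic CD8+ DCs (log2 difference 0.45, 95% interval -0.39 to 1.29, adjusted p = 0.40).

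Splenic CD8+ replicate 3 was the high library of its group in Il12b. Without it the DC1 to DC2 fold in spleen went from 4.27 to 2.50 and the LN to spleen fold in DC1 from 10.3 to 17.6, and both stayed past the threshold. Against a floor of 3 counts over the 3 monocyte libraries, Il12b was at least 3609-fold higher in LN CD103+ DCs, 478-fold in LN CD11b+ DCs, 350-fold in splenic CD8+ DCs and 82.8-fold in splenic CD4+ DCs. Reads carried no molecular identifiers, so floors and counting intervals cover counting error only.

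**Figure D1:**
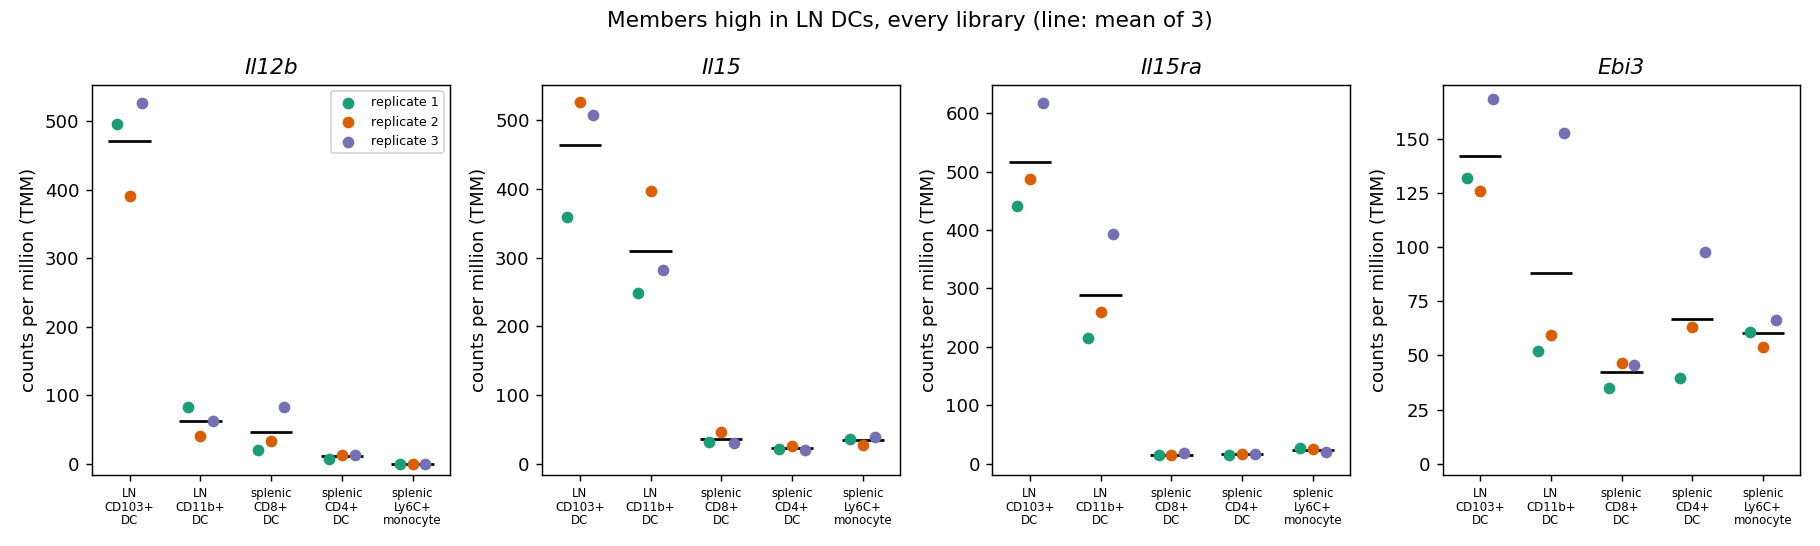
CPM (TMM, linear axes) of Il12b, Il15, Il15ra and Ebi3 in each of the 15 libraries, points coloured by replicate number, with a line at the mean of 3. Il12b is at 391 to 527 CPM in LN CD103+ DCs and 0 in monocytes, Il15 and Il15ra stand apart in both LN DC subtypes, and Ebi3 shows 1 high LN CD11b+ library at 152 CPM.

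The partners of p40 were near the limit of detection. Il12a had 7, 0 and 2 counts in LN CD103+ DCs, 0, 2 and 5 in LN CD11b+ DCs, 6, 0 and 0 in splenic CD8+ DCs, none in splenic CD4+ DCs and 1 count in 1 monocyte library. Il23a had counts only in LN DCs, 0, 3 and 1 in the CD103+ and 3, 2 and 1 in the CD11b+ libraries. Both stayed below the filter and were not tested.

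Per length, the excess of p40 over its partners was large in every DC subtype. In LN CD103+ DCs the mean was 542 TPM for Il12b, 0.724 TPM for Il12a and 0.284 TPM for Il23a. From counts pooled over the 3 libraries and divided by length, Il12b exceeded Il12a by 780 times there (95% counting interval 411 to 1705), by 133 times in LN CD11b+ DCs (64.4 to 332) and by 133 times in splenic CD8+ DCs (60.9 to 363). In splenic CD4+ DCs, where Il12a had no count, the excess was at least 47.4-fold. Over Il23a it was 1740 times in LN CD103+ DCs (679 to 6387) and 154 times in LN CD11b+ DCs (70.6 to 421). At this depth a change in Il12a or Il23a between subtypes was not detectable.

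Ebi3, which encodes the shared EBI3 chain, was present in every library. In LN it measured 132, 126 and 168 CPM in CD103+ DCs and 52.2, 59.2 and 152 CPM in CD11b+ DCs. Spleen values were 39.4, 63.1 and 97.6 CPM in CD4+ DCs, 60.8, 53.7 and 66.4 CPM in monocytes and 34.8, 46.3 and 45.7 CPM in CD8+ DCs. The LN CD103+ libraries lay above all others but LN CD11b+ replicate 3, monocytes and LN CD11b+ DCs also lay above splenic CD8+ DCs, and the other pairs overlapped. Ebi3 was higher in LN CD103+ than in splenic CD8+ DCs by a log2 difference of 1.75 ± 0.35 (adjusted p = 4.6e-04) and than in splenic CD4+ DCs by 1.09 ± 0.34 (adjusted p = 0.014), and higher in LN CD11b+ than in splenic CD8+ DCs by 1.05 ± 0.35 (adjusted p = 0.022). The last of these calls rests in part on LN CD11b+ replicate 3, at 152 CPM. It and the call against splenic CD4+ DCs were not checked by leaving out libraries. No pair of neighbours in the order of levels passed the threshold.

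Between the LN subtypes the log2 difference in Ebi3 was 0.70 ± 0.34 (adjusted p = 0.21). With the replicate number as a block it was 0.81 (adjusted p = 0.030), with no filter on low counts 0.71 (adjusted p = 0.033), and without LN CD11b+ replicate 3 it was 1.35 (adjusted p = 0.0056). The difference between splenic CD8+ and CD4+ DCs was -0.66 (adjusted p = 0.17), and with no filter it passed the threshold (adjusted p = 0.038). Of its exon bases, 23.1% are shared with Gm16712, and a read there was counted for both genes without regard to strand. Gm16712 measured 37.8 ± 4.12 CPM (SD, n = 3) in LN CD103+ DCs and at most 27.6 CPM in any library of the other subtypes.

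Il27, which encodes the p28 chain, was highest in monocytes. It measured 12.4, 9.62 and 9.87 CPM there. Among DCs it was at 5.58, 4.80 and 2.82 CPM in the LN CD103+ subtype, 1.55, 0.511 and 1.33 CPM in the splenic CD4+ subtype, 2.04, 1.03 and 0 CPM in the LN CD11b+ subtype and 0.837, 0.675 and 0.458 CPM in the splenic CD8+ subtype. All monocyte libraries lay above all DC libraries, and all LN CD103+ libraries above the other DCs. Il27 was higher in monocytes than in splenic CD8+ DCs by a log2 difference of 3.98 ± 0.65 (adjusted p = 6.0e-05), in splenic CD4+ DCs by 3.19 ± 0.62 (adjusted p = 3.6e-04) and in LN CD11b+ DCs by 3.21 ± 0.61 (adjusted p = 2.9e-04). Against LN CD103+ DCs the difference was 1.26 ± 0.55 (adjusted p = 0.060), and it passed the threshold without splenic CD4+ replicate 2, LN CD11b+ replicate 1 or LN CD11b+ replicate 3 (adjusted p = 0.020 to 0.047). With all libraries it also passed in DESeq2 and limma, with no filter on low counts and with the replicate number as a block.

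Among DCs, Il27 was higher in LN CD103+ than in splenic CD8+ DCs by a log2 difference of 2.72 ± 0.65 (adjusted p = 0.0020) and than in LN CD11b+ DCs by 1.95 ± 0.61 (adjusted p = 0.043). The second call was lost in 8 of 15 fits that each left out 1 library, with adjusted p of 0.052 to 0.12: those without any of the monocyte libraries, LN CD103+ replicate 1 or 2, LN CD11b+ replicate 2 or 3, or splenic CD8+ replicate 2. Without LN CD11b+ replicate 1, the fold against LN CD11b+ DCs went from 3.85 to 7.40 for LN CD103+ DCs and from 9.23 to 17.7 for monocytes. Il27 shares 10.1% of its exon bases with Apobr, an apolipoprotein B receptor gene, whose level was 134 CPM in monocytes, 106 and 78.8 CPM in splenic CD8+ and CD4+ DCs and 15.1 and 12.5 CPM in the CD103+ and CD11b+ DCs of LN. Monocytes had the most of both genes, and the part of shared reads in the Il27 counts was not tested.

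The chains of IL-27 came nearest to each other in monocytes. Per length Ebi3 exceeded Il27 by 5.01 ± 0.81 times there (SD, n = 3 libraries), with means of 133 and 27.0 TPM, against 31.9 ± 17.6 times in LN CD103+ DCs, 64.6 ± 42.7 times in splenic CD4+ DCs and 61.1 ± 25.4 times in splenic CD8+ DCs. The ranges were 4.28 to 5.88 in monocytes and 20.6 to 52.1 in LN CD103+ DCs. For the CD11b+ DCs of LN, where 1 library had no Il27 count, the pooled excess was 53.0 times (95% counting interval 36.0 to 81.4). Over Il12a, its other possible partner, the pooled excess of Ebi3 was 395 times in LN CD103+ DCs (208 to 865), 264 times in LN CD11b+ DCs (128 to 658) and 202 times in splenic CD8+ DCs (92.3 to 551).

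**Figure D2:**
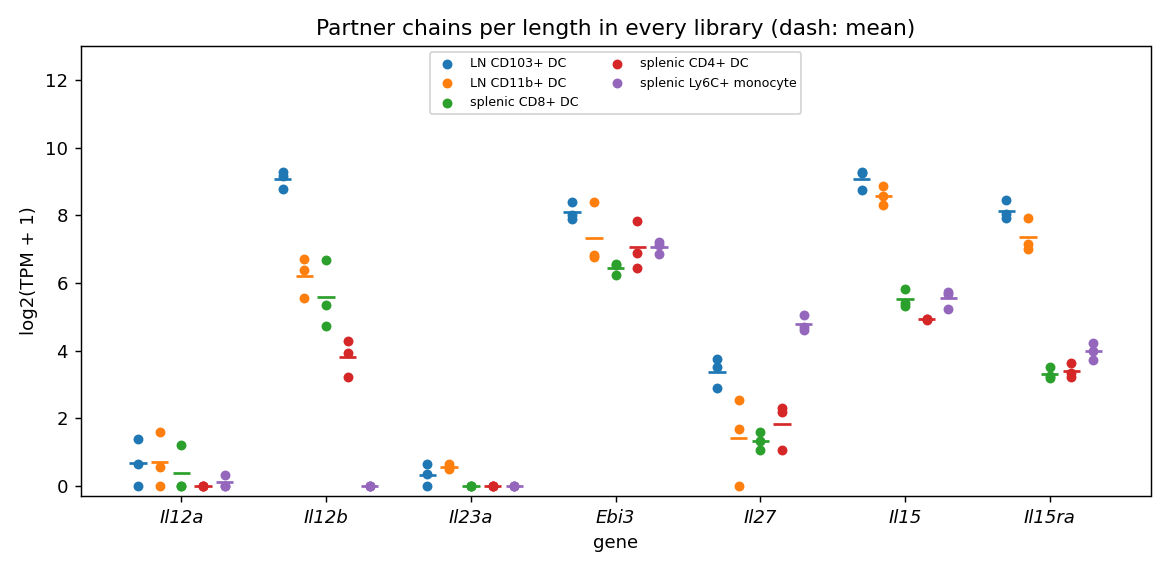
log2(TPM + 1) of 7 chains in each library, coloured by subtype, with a dash at the mean of the 3 libraries on that scale. Il12b is far above Il12a and Il23a in all DCs, and the gap between Ebi3 and Il27 is smallest in monocytes.

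Il6, an acute-phase and T cell differentiation cytokine, was low throughout. It measured 1.38, 2.24 and 2.63 CPM in monocytes. DC values were 1.61, 0.587 and 0.884 CPM for LN CD11b+, 0.140, 1.76 and 0.828 CPM for LN CD103+, 0.239, 0 and 1.49 CPM for splenic CD8+ and 0.387, 0 and 0.166 CPM for splenic CD4+ cells. Of the 10 pairs of subtypes, monocytes and splenic CD4+ DCs alone differed past the threshold (log2 difference 3.30 ± 1.10, adjusted p = 0.020), on 50 against 4 pooled counts. That call was lost without splenic CD4+ replicate 2 (adjusted p = 0.068) or monocyte replicate 3 (adjusted p = 0.051), and without splenic CD4+ replicate 1 the fold went from 9.86 to 20.9. The difference between monocytes and splenic CD8+ DCs (1.80, 95% interval -0.16 to 3.76, adjusted p = 0.13) was past the threshold without splenic CD8+ replicate 3 (3.89, adjusted p = 0.014) and in limma on log2(TPM + 1) (adjusted p = 0.020).

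Il10, the main anti-inflammatory cytokine of this set, had 9, 3 and 8 counts in LN CD11b+ DCs and 0, 0 and 14 in LN CD103+ DCs. It had 4, 5 and 0 counts in splenic CD8+ DCs, 0, 0 and 3 in splenic CD4+ DCs and 0, 2 and 0 in monocytes. LN CD11b+ DCs were the only subtype with a count in each library. The gene stayed below the filter and was not tested.

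Tnf, the gene for tumour necrosis factor, was lowest in monocytes. It measured 4.52, 3.50 and 1.97 CPM there. DC values were 14.6, 14.2 and 42.7 CPM for LN CD11b+, 12.8, 17.9 and 19.4 CPM for LN CD103+, 6.19, 13.6 and 20.6 CPM for splenic CD4+ and 9.80, 5.13 and 16.6 CPM for splenic CD8+ cells. Every DC library lay above every monocyte library, and the DC subtypes overlapped each other. In each of the 4 DC subtypes replicate 3 was the highest. Tnf was lower in monocytes than in LN CD11b+ DCs by a log2 difference of -2.84 ± 0.54 (adjusted p = 2.6e-04), LN CD103+ DCs by -2.34 ± 0.53 (adjusted p = 0.0011), splenic CD4+ DCs by -2.03 ± 0.53 (adjusted p = 0.0045) and splenic CD8+ DCs by -1.68 ± 0.53 (adjusted p = 0.016).

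The last Tnf call was lost without splenic CD8+ replicate 3 (adjusted p = 0.099) or monocyte replicate 3 (adjusted p = 0.079) and in limma on log2(TPM + 1) (adjusted p = 0.055). Without LN CD11b+ replicate 3 the fold between LN CD11b+ DCs and monocytes went from 7.15 to 4.39. Each monocyte library was sequenced in 2 runs, and Tnf had 21 counts in the first runs and 53 in the second, with the second higher in all 3 libraries. No pair of DC subtypes passed the threshold for Tnf, the largest difference being 1.16 (95% interval 0.14 to 2.17, adjusted p = 0.066) for LN CD11b+ minus splenic CD8+ DCs.

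**Figure D3:**
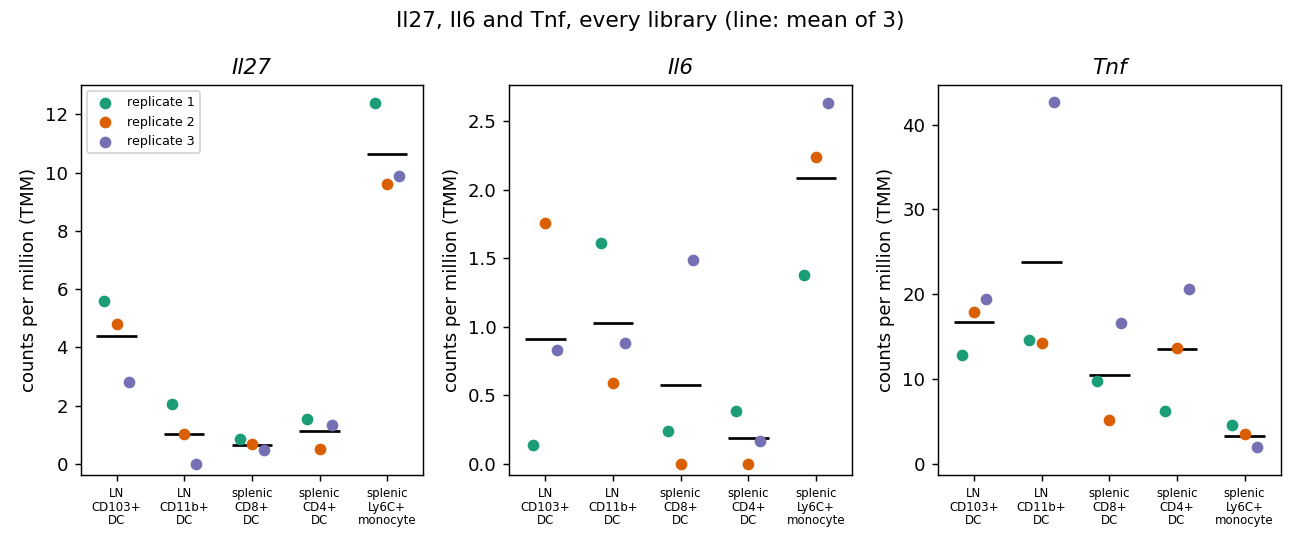
CPM (TMM, linear axes) of Il27, Il6 and Tnf in each of the 15 libraries, points coloured by replicate number, with a line at the mean of 3. Il27 is at 9.62 to 12.4 CPM in monocytes and at most 5.58 CPM in all DC libraries, and Tnf is at most 4.52 CPM in monocytes and highest, at 42.7 CPM, in 1 LN CD11b+ library.

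Il15 lies on chromosome 8 (82331637 to 82403222, minus strand). In LN it measured 359, 526 and 507 CPM in the CD103+ and 248, 397 and 282 CPM in the CD11b+ subtype. In the spleen it measured 32, 45.9 and 30.7 CPM in CD8+ DCs, 36.0, 27.7 and 38.8 CPM in monocytes and 21.8, 26.1 and 20.5 CPM in CD4+ DCs. All LN DC libraries lay above all splenic libraries, the LN subtypes overlapped, and splenic CD4+ DCs were below the other splenic subtypes. The log2 difference between LN and spleen was 3.68 ± 0.25 in DC1 (adjusted p = 1.6e-09) and 3.76 ± 0.25 in DC2 (adjusted p = 4.0e-09). Monocytes were lower than LN CD103+ DCs by -3.77 ± 0.25 (adjusted p = 4.2e-10) and than LN CD11b+ DCs by -3.18 ± 0.25 (adjusted p = 5.6e-09).

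Within an organ the differences in Il15 were small. LN CD103+ DCs exceeded LN CD11b+ DCs by 0.59 ± 0.22 on the log2 scale (adjusted p = 0.097), and the value with the replicate number as a block was 0.59 (adjusted p = 0.043). Without LN CD11b+ replicate 2 it was 0.81 (adjusted p = 0.039). Splenic CD8+ DCs exceeded splenic CD4+ DCs by 0.67 ± 0.24 (adjusted p = 0.042). That call was lost with RLE size factors (adjusted p = 0.059) and without splenic CD8+ replicate 2, splenic CD4+ replicate 1 or 3, or monocyte replicate 1 (adjusted p = 0.053 to 0.24).

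Il15ra, the chain that presents IL-15, rose with it in LN DCs. Its level there was 441, 488 and 618 CPM in the CD103+ and 215, 260 and 393 CPM in the CD11b+ subtype, with no overlap. Monocytes had 27.5, 24.7 and 19.7 CPM, splenic CD4+ DCs 14.7, 15.9 and 17.3 CPM and splenic CD8+ DCs 14.2, 14.4 and 17.7 CPM. The log2 difference between LN and spleen was 5.06 ± 0.26 in DC1 (adjusted p = 1.3e-10) and 4.18 ± 0.25 in DC2 (adjusted p = 1.4e-09). LN CD103+ DCs exceeded LN CD11b+ DCs by 0.84 ± 0.22 (adjusted p = 0.014), a call lost without LN CD103+ replicate 3 or LN CD11b+ replicate 1 or 2 (adjusted p = 0.064 to 0.082).

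Splenic CD8+ and CD4+ DCs did not differ detectably in Il15ra, with a log2 difference of -0.04 (95% interval -0.54 to 0.45, adjusted p = 0.92). Monocytes were lower than LN CD103+ DCs by -4.43 ± 0.25 (adjusted p = 5.4e-11) and than LN CD11b+ DCs by -3.59 ± 0.24 (adjusted p = 9.7e-10). They lay above all splenic DC libraries, by 0.63 ± 0.23 against CD8+ DCs (adjusted p = 0.036) and 0.59 ± 0.23 against CD4+ DCs (adjusted p = 0.046). The first call was lost without splenic CD8+ replicate 1 or 2 or monocyte replicate 1 or 2 (adjusted p = 0.088 to 0.13).

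The difference in Il15 between monocytes and splenic CD4+ DCs, 0.58 ± 0.24 (adjusted p = 0.049), and that in Il15ra stood just inside the threshold. Each was lost in 9 of the 15 fits without 1 library, with adjusted p of 0.051 to 0.16 for Il15 and 0.051 to 0.15 for Il15ra, and both were lost with RLE size factors (adjusted p = 0.070 and 0.071) and DESeq2 (adjusted p = 0.062 and 0.068). The Il15ra call was also lost in limma (adjusted p = 0.057) and with no filter (adjusted p = 0.054). Libraries whose removal ended both calls were splenic CD8+ replicates 1 and 2, splenic CD4+ replicates 1 and 3, LN CD103+ replicate 2 and monocyte replicate 1. Those that ended the Il15 call alone were LN CD103+ replicate 3, LN CD11b+ replicate 3 and monocyte replicate 3, and those that ended the Il15ra call alone were splenic CD4+ replicate 2, LN CD11b+ replicate 2 and monocyte replicate 2.

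Ligand and receptor chain were nearer to each other per length in LN than in splenic CD8+ DCs. Il15 exceeded Il15ra by 1.95 ± 0.33 times (SD, n = 3) in LN CD103+ DCs, 2.44 ± 0.87 times in LN CD11b+ DCs, 3.10 ± 0.51 times in splenic CD4+ DCs, 3.16 ± 0.96 times in monocytes and 5.15 ± 1.58 times in splenic CD8+ DCs. Mean TPM of Il15 and Il15ra was 549 and 284 in LN CD103+ DCs and 45.5 and 9.03 in splenic CD8+ DCs. Over the 15 libraries the log2 CPM of the pair had a Pearson correlation of 0.98, as a description over libraries that share subtype and organ.

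Counted by comparison, the members rose mainly with the LN. In LN CD103+ minus splenic CD8+ DCs, 5 of 7 tested members were higher (Il12b, Ebi3, Il27, Il15, Il15ra) and none lower, where 23.8% of all genes tested were higher and 21.8% lower. The median log2 difference was 2.72 over the tested members and 0.00 over all genes. In LN CD11b+ minus splenic CD4+ DCs, 3 members were higher (Il12b, Il15, Il15ra) and none lower, against 19.3% of genes higher and 13.8% lower, with medians of 2.32 and 0.05.

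Between DC lineages, in LN CD103+ minus LN CD11b+ DCs, 3 members were higher (Il12b, Il27, Il15ra), against 5.22% of genes higher and 7.73% lower, and 5 with the replicate number as a block, which added Ebi3 and Il15. In splenic CD8+ minus CD4+ DCs, 2 members were higher (Il12b, Il15), against 13.1% of genes higher and 14.4% lower. Median log2 differences over the tested members were 0.70 in LN and -0.04 in spleen. Comparisons that share a subtype share its libraries.

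**Figure D4:**
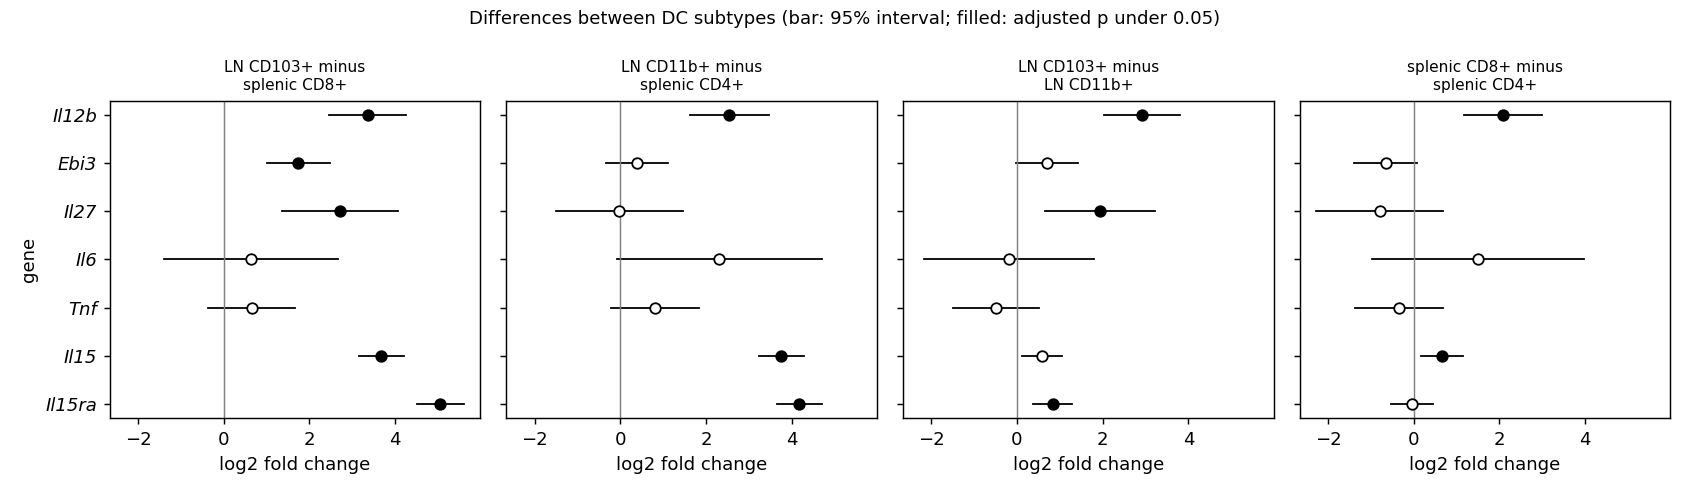
Log2 fold changes of the 7 tested members with 95% intervals in 4 comparisons between DC subtypes. Filled points have an adjusted p under 0.05 in edgeR's quasi-likelihood test, with 5 filled for LN CD103+ minus splenic CD8+ DCs and 2 for splenic CD8+ minus CD4+ DCs.

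Whether the DC1 to DC2 difference depended on the organ was tested as an interaction. No member passed the threshold in edgeR's quasi-likelihood test, where 11.2% of all genes did, although 3 had an unadjusted p under 0.05. These were Ebi3 (log2 1.35 ± 0.49, adjusted p = 0.082), Il27 (2.74 ± 0.93, adjusted p = 0.067) and Il15ra (0.88 ± 0.32, adjusted p = 0.087). Their DC1 minus DC2 differences were 0.70, 1.95 and 0.84 in LN. In spleen these were -0.66, -0.79 and -0.04, none past the threshold. DESeq2 called 2 members, limma 1 and the fit with no filter on low counts 2. With the replicate number as a block all 3 were called, at 1.39 (adjusted p = 0.011), 2.86 (adjusted p = 0.035) and 0.90 (adjusted p = 0.040). Leaving out single libraries also changed calls. Without LN CD11b+ replicate 3 Ebi3 was at 2.01 (adjusted p = 0.0027) and Il15ra at 1.16 (adjusted p = 0.015), and without splenic CD4+ replicate 1 Ebi3 was at 1.63 (adjusted p = 0.034). Il27 was called without splenic CD4+ replicate 2 (3.06, adjusted p = 0.044) or LN CD11b+ replicate 1 (3.68, adjusted p = 0.027), and Il12b without splenic CD8+ replicate 3 (1.59, adjusted p = 0.040).

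Monocytes differed from each DC subtype in several members. Against splenic CD8+ DCs 2 members were higher (Il27, Il15ra) and 2 lower (Il12b, Tnf), where 20.4% of genes were higher and 21.7% lower. Against splenic CD4+ DCs 4 were higher (Il27, Il6, Il15, Il15ra) and 2 lower (Il12b, Tnf), where 23.8% of genes were higher and 24.2% lower. Against LN CD103+ DCs none was higher and 5 were lower (Il12b, Ebi3, Il15, Il15ra, Tnf), where 24.6% of genes were higher and 28.6% lower. Against LN CD11b+ DCs 1 was higher (Il27) and 4 lower (Il12b, Il15, Il15ra, Tnf), where 21.3% of genes were higher and 26.5% lower.

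**Figure D5:**
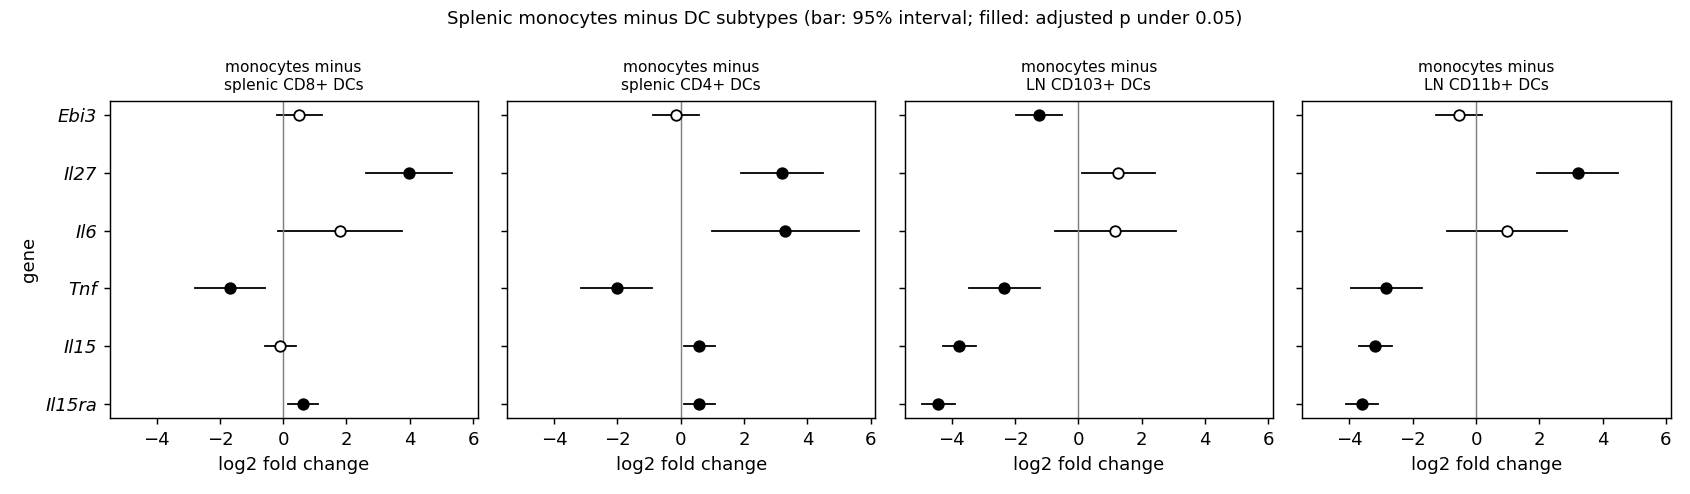
Log2 fold changes with 95% intervals for splenic monocytes minus each DC subtype, filled where the adjusted p is under 0.05 in edgeR's quasi-likelihood test. Il12b is left out since monocytes had no count of it. Il27 lies to the right of 0 and Tnf to the left in all 4 comparisons.

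Receptor chains for these cytokines moved in both directions. Of 12 chains, 7 were higher and 4 lower in LN CD103+ than in splenic CD8+ DCs (23.8% and 21.8% of all genes tested), and 5 were higher and 5 lower in LN CD11b+ than in splenic CD4+ DCs (19.3% and 13.8%). Il12rb2, an IL-12 receptor chain, was among the lower ones in both. In LN CD11b+ DCs it was at 20.2 ± 3.60 CPM against 113 ± 9.13 CPM in splenic CD4+ DCs (log2 -2.48 ± 0.28, adjusted p = 1.4e-06). Tnfrsf1b, the TNF receptor 2 gene, was at 1371 ± 173 CPM (SD, n = 3) in LN CD103+ against 53.8 ± 13.4 CPM in splenic CD8+ DCs (log2 4.67 ± 0.25, adjusted p = 1.3e-10). Il12rb1, which binds p40, was at 2.98 and 4.54 CPM in the CD103+ and CD11b+ DCs of LN against 0.120 and 0.0430 CPM in splenic CD8+ and CD4+ DCs, and Il23r at 1.69 and 4.91 against 0.0797 and 0.0985 CPM. Il2rb, the β chain that receives IL-15, was at 27.8 ± 22.1 CPM in LN CD11b+ and 3.29 ± 1.88 CPM in splenic CD4+ DCs. Levels of Tnfrsf1b, Il12rb1, Il23r and Il2rb were higher in LN DCs than in splenic DCs of the same lineage, and the T cell marker sums were higher in LN too. Between the LN subtypes, Il12rb1, Il23r and Il2rb did not differ past the threshold. The T cell markers summed to 55.6 to 83.8 CPM in LN CD11b+ and 80.2 to 114 CPM in LN CD103+ DCs. The 5 NK cell markers summed to 2.57 to 6.70 CPM in LN CD103+ and 2.69 to 15.5 CPM in LN CD11b+ DCs, and to at most 1.89 CPM in the splenic subtypes. The part of these cells was not tested.

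Between lineages the receptor chains were lower in DC1 where they differed. In the spleen 6 of 12 were lower and none higher in CD8+ than in CD4+ DCs, where 14.4% of all genes were lower and 13.1% higher. Among them was Il2rg, the common γ chain, at 202 ± 88.1 against 1121 ± 383 CPM (log2 -2.47 ± 0.31, adjusted p = 1.1e-05). In LN, where 7.73% of all genes were lower in CD103+ DCs, 2 chains were, Il6ra at 10.8 against 59.5 CPM and Tnfrsf1a at 22.8 against 38.1 CPM. Monocytes had the most Tnfrsf1b, 2135 CPM, with Il6ra at 457 CPM and Tnfrsf1a at 398 CPM, all higher than in each DC subtype. Il23r had no count in monocytes.

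Regulators of these genes were measured as a list of 17. In LN CD103+ minus splenic CD8+ DCs 9 were higher and 2 lower, and in LN CD11b+ minus splenic CD4+ DCs 8 were higher and 1 lower, against the same shares of all genes as for the receptors. Irf1, an interferon-induced activator, was at 1472 ± 160 CPM in LN CD103+ against 182 ± 65.7 CPM in splenic CD8+ DCs (log2 3.01 ± 0.24, adjusted p = 1.1e-08), and Rel, an NF-kB subunit, at 181 against 35.7 CPM (2.34 ± 0.21, adjusted p = 4.8e-08). Prdm1, which encodes BLIMP-1, was at 31.8 against 0.485 CPM. Irf8, which drives DC1 development and also lies among the markers of that lineage, was lower in LN CD103+ than in splenic CD8+ DCs, 613 ± 132 against 2486 ± 579 CPM. Nfkb1, another NF-kB subunit, was also lower there, while Rela was higher. In LN CD11b+ DCs Nfkb1, the only regulator lower there, was at 264 ± 45.0 CPM against 975 ± 195 CPM in splenic CD4+ DCs (log2 -1.88 ± 0.22, adjusted p = 3.2e-06). Irf8 was higher in LN CD11b+ than in splenic CD4+ DCs, at 239 ± 79.9 against 51.9 ± 14.5 CPM (log2 2.20 ± 0.27, adjusted p = 4.6e-06). So were Prdm1, at 40.9 against 9.32 CPM, and Nfil3, at 33.3 against 9.97 CPM.

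In splenic CD8+ minus CD4+ DCs 3 regulators were higher and 9 lower (13.1% and 14.4% of all genes). The largest difference was that of Irf8 (2486 against 51.9 CPM). Among the lower ones were Prdm1 (0.485 against 9.32 CPM), Zfp36 (440 against 1501 CPM) and Nfkb1 (300 against 975 CPM). In LN CD103+ minus CD11b+ DCs, where 5.22% of all genes were higher and 7.73% lower, 2 were higher, Irf8 (613 against 239 CPM) and Irf1 (1472 against 729 CPM), and 1 lower, Maf (2.25 against 15.6 CPM). In monocytes Nfil3 at 220 CPM and Atf3, a stress-response repressor, at 348 CPM were higher than in each DC subtype.

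Genes with a pattern most like each member were taken over the 15 libraries among genes whose mean reached 10 CPM in some subtype, as a description. For Il12b these were Dynll2 (Pearson r of log2 CPM 0.98), Ly75 (0.98), which encodes the uptake receptor DEC-205, and Serpinb6b (0.97). Il15 and Il15ra both had Plppr4 first (0.99 and 0.99), followed by Ccl17 and Fnbp1l for Il15 and by Csf2rb2 and Pvr for Il15ra. Ebi3 was nearest to Wars (0.93), Abhd16a and Rapgef2, Il27 to Arrdc3 (0.90), Trim11 and Mndal, Tnf to Vps13a (0.91), Fbxo45 and Ephx2, and Il6 to Zfp787 (0.89), Spata6 and 6230400D17Rik. The libraries share subtype, organ and depth, so these values carry no test.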

How the data were processed

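RNA was measured in 15 libraries of 5 subtypes, assigned by title. To make the count table, the authors discarded Ion Torrent reads under 30 nt, mapped the rest to mm10 with STAR 2.4.0j and counted reads per Ensembl 75 gene with featureCounts (Subread 1.5.2), unstranded, each read counted for every gene it overlapped by a fraction of 0.5. The deposited TPM follow from these counts and the exon lengths of the genes, as checked by recomputing them. The deposited counts equal the summed runs in all 15 libraries. Symbols came from GENCODE vM21 for 37607 of 38924 identifiers. Human cells and murine macrophages of the study were not analysed here.

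Genes above 1 CPM in at least 3 libraries (14456) were tested in 1 edgeR 4.0.16 quasi-likelihood model, fitted to all 15 libraries with 1 coefficient for each subtype and TMM factors of 0.883 to 1.10 (R 4.3.3, common dispersion 0.0681, 10 residual degrees of freedom). P values were Benjamini-Hochberg adjusted over all genes tested, with a threshold of 0.05. Correlations used log2 CPM with a prior count of 2. A floor of 3 counts per group stood in for 0, counting intervals are exact at 95%, and 3 libraries against 3 cannot go below p = 0.1 in an exact permutation test. CPM used the filtered genes' totals. Alternatives were RLE size factors, DESeq2 1.42.0, limma 3.58.1 on log2(TPM + 1), no filter (23169 genes), the replicate number as a block and leaving out each library. They were not read for LN CD103+ minus splenic CD4+ DCs or LN CD11b+ minus splenic CD8+ DCs. No label ties libraries to animals. Whether a replicate number marks a shared pool is not given in the sources used here. The deviations of same-numbered libraries from their subtype means correlated at 0.16 to 0.38 in splenic CD8+ and CD4+ DCs, 0.18 to 0.26 in the LN subtypes, 0.20 to 0.27 in splenic CD4+ and LN CD11b+ DCs and 0.12 to 0.15 in splenic CD4+ and LN CD103+ DCs. The model has no block. Values with the replicate number as a block are given where it changed a call in the comparisons read with it. In splenic CD8+ and LN CD11b+ DCs the correlations of same-numbered libraries were 0.016 to 0.18. Those of splenic CD8+ with LN CD103+ DCs and of monocytes with each DC subtype stayed under 0.1.

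The members, gene lists (receptors, regulators, other cytokines and cell type markers) and tests were chosen with earlier results of these data known. Named are all members, at most 4 genes of a list per comparison (past the threshold, largest fold changes, no overlap between the libraries) and for each member the 3 genes most like it, while list genes set beside another subtype or comparison, and the promoter letters, were chosen after their values were seen.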

Additional observations from a re-analysis of the deposited data

How the results depend on the processing

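RLE size factors, DESeq2, limma on log2(TPM + 1), no filter on low counts, the replicate block and leaving out each library were tried. They were read for every comparison but LN CD103+ minus splenic CD4+ and LN CD11b+ minus splenic CD8+ DCs. In them no difference past the threshold changed direction, but differences short of it did. Without single libraries, splenic CD8+ minus CD4+ DCs ranged from -0.60 to 2.59 (log2) in Il6, -0.15 to 0.020 in Il15ra and -0.84 to 0.10 in Tnf. LN CD103+ minus LN CD11b+ DCs ranged from -1.14 to 0.35 in Il6 and -0.76 to 0.21 in Tnf, LN CD103+ minus splenic CD8+ DCs from -0.32 to 2.73 in Il6, and LN CD11b+ minus splenic CD4+ DCs from -0.26 to 0.77 in Ebi3 and -0.96 to 0.44 in Il27. The interaction ranged from -2.77 to 0.41 in Il6, -0.22 to 0.14 in Il15 and -0.60 to 0.56 in Tnf. Monocytes minus splenic CD8+ DCs ranged from -0.19 to 0.11 in Il15 (limma 0.028), and in Ebi3 monocytes ranged from -0.42 to 0.24 against splenic CD4+ DCs (limma 0.0030) and -0.81 to 0.11 against LN CD11b+ DCs. The number of members called in splenic CD8+ minus CD4+ DCs was 2, but 1 with RLE size factors, and 1 to 2 without single libraries. In LN CD103+ minus LN CD11b+ DCs the number of members called was 5 in place of 3 with the replicate block, and all genes called, 1872, ranged from 1216 (without LN CD103+ replicate 2) to 2171 without single libraries. For the interaction, members called were 0, but 2 in DESeq2, 1 in limma, 2 with no filter, 3 with the replicate block and 0 to 2 without single libraries. Il27 in monocytes minus LN CD103+ DCs passed the threshold with the block (1.31, adjusted p = 0.033) and in DESeq2 (1.23, adjusted p = 0.038). It also passed in limma (1.42, adjusted p = 0.029) and with no filter (1.28, adjusted p = 0.037). The block changed no other call in the comparisons read with it. With no filter, Il10 was lower in monocytes than in LN CD11b+ DCs (log2 -3.40, adjusted p = 0.041). The causes were not tested. Depth limits what can be said of Il12a, Il23a, Il10 and Il6, all with few counts.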

Other observations

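Other myeloid cytokines and cytokine inhibitors, a list of 15, also separated the subtypes. In LN CD103+ minus splenic CD8+ DCs 10 were higher and 3 lower (23.8% and 21.8% of all genes tested), and in LN CD11b+ minus splenic CD4+ DCs 9 were higher and 3 lower (19.3% and 13.8%). Csf1, the macrophage growth factor, was at 69.8 ± 6.02 CPM (SD, n = 3) in LN CD103+ against 0.826 ± 0.242 CPM in splenic CD8+ DCs (log2 6.38 ± 0.34, adjusted p = 1.3e-10). Il7, a lymphocyte survival factor, was at 9.33 against 0.0831 CPM, and Il1rn, the interleukin-1 receptor antagonist, at 22.9 against 0.236 CPM. In LN CD11b+ DCs Lif was at 8.76 CPM and had no count in splenic CD4+ DCs.

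Between lineages, 7 of the 15 were lower and 1 higher in splenic CD8+ than in CD4+ DCs (14.4% and 13.1% of all genes), and 4 were lower and 1 higher in LN CD103+ than in LN CD11b+ DCs (7.73% and 5.22%). Il1b was at 44.7 ± 9.70 CPM in LN CD103+ and 178 ± 66.2 CPM in LN CD11b+ DCs (log2 -2.00 ± 0.31, adjusted p = 1.7e-04). Monocytes had oncostatin M (Osm) at 85.1 CPM, against 0.417 CPM in splenic CD8+ and 3.56 CPM in splenic CD4+ DCs, and Tgfb1 at 473 CPM against 17.2 CPM in LN CD103+ DCs.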
